A study of Mus musculus with 14 samples.

Results

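The 8 genes described here encode structural parts of basement membranes: the collagen IV chains Col4a1 and Col4a2, the laminin chains Lamb1, Lamc1 and Lama2, the linker nidogen-1 (Nid1), and the heparan sulfate proteoglycans perlecan (Hspg2) and agrin (Agrn). They were taken by gene symbol, and 11 of the 12488 probe sets on the array carry one of these symbols. Col4a1, Col4a2, Lama2, Nid1 and Hspg2 have 1 probe set each, and Lamb1, Lamc1 and Agrn have 2 each. RNA of CD-1 mice was hybridised to 14 Affymetrix mouse arrays. The myofibroblast cultures (3 arrays) were stromal cells of the cornea from adult mice of 7 to 8 weeks, grown in DMEM with 10% fetal bovine serum and 10 ng/ml TGF-beta1. The fibroblast cultures (3 arrays) had the same cells and serum without TGF-beta1, and the keratocyte cultures (3 arrays) had the same cells in DMEM with 1% platelet-poor horse serum. Adult stroma (3 arrays) was dissected from corneas of mice of 7 to 8 weeks, and P10 stroma (2 arrays) from mice at postnatal day 10. The labels do not say whether arrays of a group came from separate animals or cultures, or how many animals were pooled, so the p-values below measure the spread between these arrays, which may be technical.

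Basement membranes are thin sheets of matrix on which epithelia and endothelia rest and which wrap muscle, fat and nerve cells. Laminins, trimers of an alpha, a beta and a gamma chain, form a network at the cell surface, collagen IV forms a covalently linked network beside it, and nidogen and perlecan tie both together. In the cornea such sheets lie under the epithelium and, as Descemet's membrane, in front of the endothelium, whereas the stroma between them is mainly fibrillar collagen kept by keratocytes. Keratocytes put into serum become fibroblasts, and with TGF-beta they become contractile myofibroblasts, the cells of corneal scars.

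Values are probe set signals on a linear scale, and a signal compares arrays within a probe set only, not different genes. The 95th percentile of 19 control probe sets, whose transcripts were absent from the samples, was 137.7, and a signal under 137.7 is called within background here. Array medians ran from 102 to 135.6. As a measure of RNA degradation, the Gapdh signal from the 3' end over that from the 5' end was 2.12 on adult replicate 1 and 0.756 to 1.04 on the other 13 arrays. Without that array the counts of called genes, Nid1 included, were 4 in adult against P10 stroma and 6, 7 and 7 in keratocyte, fibroblast and myofibroblast culture against adult stroma, beside 4, 6, 7 and 8 with it.

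The dissected stroma also carried RNA of neighbouring tissues. Over 17 markers of the corneal epithelium the summed signal was 721.3 to 880 in myofibroblast, 794.2 to 1072 in fibroblast and 1362 to 1680 in keratocyte cultures, against 28810 to 32870 in adult and 28020 to 28090 in P10 stroma. Itgb4, Col17a1 and Epcam, which define epithelium, were at the floor of the scale on all culture arrays. Unlike Itgb4 and Col17a1, Epcam was within background on average in adult and P10 stroma too, so no loss can be read from it. Others of the list were above background on average in culture: Krt12 and Jup in all 3 cultures, Gsta4 in fibroblast and keratocyte, Klf5 in fibroblast and Perp in keratocyte cultures. Over 6 lens markers the sum was 460.7 to 480.5, 505.7 to 595.3 and 578.8 to 792 in the same cultures, against 4658 to 7545 in adult and 5310 to 9604 in P10 stroma. Of 12 keratocyte markers, 9 in myofibroblast, 10 in fibroblast and 11 in keratocyte cultures were above background on average, as were 11 in adult and 11 in P10 stroma. Keratocan (Kera) was within background in fibroblast and myofibroblast cultures. Smooth muscle actin (Acta2), which defines myofibroblasts, had a mean signal of 2983 ± 69.1 in myofibroblast, 2046 ± 1240 in fibroblast and 3193 ± 142 in keratocyte cultures, against 56 ± 14.3 in adult stroma (SD, n = 3 each) and 474.8 ± 211 in P10 stroma (SD, n = 2). By this gene the cultures named keratocyte did not stand below those named myofibroblast.

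Several of the basement membrane genes were lower in adult than in P10 stroma, and 5 were called higher in every culture than in adult stroma. Lamb1 was called higher in myofibroblast culture only, and agrin was not higher in any culture. Differences below are those of log2(signal + 16), fitted over all probe sets with limma and called at an adjusted p under 0.05, and no difference is printed here against a group within background. Nid1 is left out of the counts against adult stroma: it was within background on all 14 arrays and passed the filter on low signals (a mean of 50 in any group) only through keratocyte (60.65) and fibroblast cultures (69.9). In adult against P10 stroma 4 of the 8 genes fell (Col4a1, Col4a2, Lamb1 and Agrn) and 0 rose, where 3.26% of the 10370 probe sets tested fell and 0.453% rose. The median difference was -1.12 over the 8 genes, -1.17 without Nid1 and -0.125 over all probe sets. Keratocyte culture against adult stroma had 5 of the other 7 genes that rose (Col4a1, Col4a2, Lamc1, Lama2 and Hspg2) and 0 that fell, where 21.8% of probe sets rose and 9.25% fell. The medians there were 1.64 over the 7 genes and 0.12 over all. In fibroblast culture against adult stroma the same 5 genes rose and Agrn fell, where 18.4% of probe sets rose and 12.3% fell. In myofibroblast culture against adult stroma these 5 and Lamb1 rose and Agrn fell, where 17.5% of probe sets rose and 15.5% fell. Medians over the 7 genes were 1.26 and 1.1 in these comparisons, beside 0.04 and -0.01 over all probe sets. The 3 comparisons of a culture with adult stroma share the adult arrays. The sums of epithelial and lens markers moved with them, and their part in the results was not tested. In such bulk samples fewer cells of a type and less RNA per cell cannot be told apart.

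Between cultures few of these genes passed the test. In fibroblast against keratocyte culture Col4a1 and Agrn fell and 0 genes rose, where 1.18% of probe sets fell and 0.193% rose. In myofibroblast against keratocyte culture Agrn fell and 0 genes rose, where 4.88% fell and 1.1% rose. In myofibroblast against fibroblast culture, the comparison that adds TGF-beta1, limma called 0 of the 8 genes, where 0.781% of probe sets fell and 0.289% rose. In that comparison 3 genes (Col4a1, Lamb1 and Lama2) had an unadjusted p under 0.05, and 0 were called under each alternative setting tried. A fit that pairs these arrays by replicate number called 63 probe sets higher and 147 lower, against 30 and 81 in the fit of all arrays. Col4a1 and Col4a2 rose and Agrn fell in keratocyte culture against P10 stroma, where 8.84% of probe sets rose and 6.59% fell. Quantile normalization moved the share of called probe sets that rose by over 10 points in 5 comparisons. That share was 12.2% as deposited and 25.4% after it in adult against P10 stroma, 70.2% and 53.7% in keratocyte culture against adult stroma, and 14.1% and 26% in fibroblast against keratocyte culture. It was 27% and 39.9% in myofibroblast against fibroblast culture, and 18.4% and 40% in myofibroblast against keratocyte culture.

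**Figure D1:**
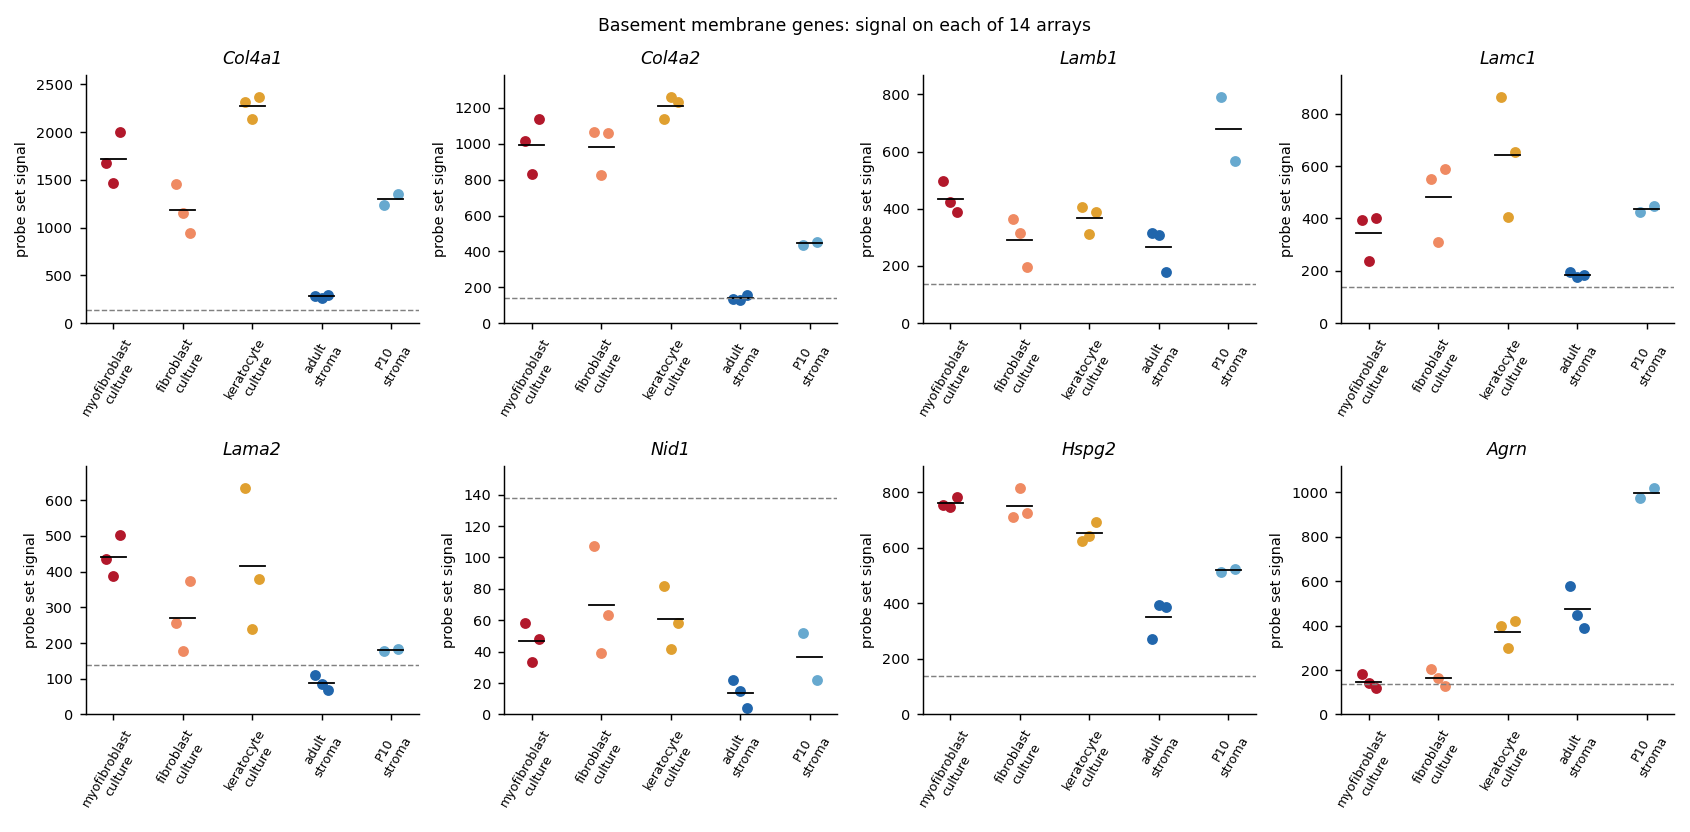
Signal of each of the 8 genes on each of 14 arrays (one panel a gene, linear axes from 0), with the group mean as a bar and the background level of 137.7 as a dashed line. Col4a1, Col4a2 and Hspg2 are lowest in adult stroma, Agrn is highest in P10 stroma, and every Nid1 point lies under the dashed line.

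Col4a1 and Col4a2 encode the chains that, in a ratio of 2 to 1, make the most widespread collagen IV trimer. The genes lie head to head: their start sites as annotated by RefSeq in GRCm38.p6 are 21 bases apart on chromosome 8 (11312826 on the minus strand for Col4a1 and 11312805 on the plus strand for Col4a2). By these positions the annotated genes overlap at their first bases, with no gap between the start sites. The promoter entries, 250 bases before to 50 after each start, overlap in part and are set side by side below. The 78 bases that both entries hold are in capitals, and each is the reverse complement of the other.
Col4a1, chr8:11312777-11313076, minus strand: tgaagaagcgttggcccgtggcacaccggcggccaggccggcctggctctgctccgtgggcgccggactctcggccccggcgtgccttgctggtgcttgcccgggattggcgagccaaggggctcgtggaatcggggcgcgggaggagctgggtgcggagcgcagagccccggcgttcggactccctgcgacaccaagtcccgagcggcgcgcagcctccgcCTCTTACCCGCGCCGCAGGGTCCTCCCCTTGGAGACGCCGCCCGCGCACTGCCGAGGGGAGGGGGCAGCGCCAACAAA
Col4a2, chr8:11312555-11312854, plus strand: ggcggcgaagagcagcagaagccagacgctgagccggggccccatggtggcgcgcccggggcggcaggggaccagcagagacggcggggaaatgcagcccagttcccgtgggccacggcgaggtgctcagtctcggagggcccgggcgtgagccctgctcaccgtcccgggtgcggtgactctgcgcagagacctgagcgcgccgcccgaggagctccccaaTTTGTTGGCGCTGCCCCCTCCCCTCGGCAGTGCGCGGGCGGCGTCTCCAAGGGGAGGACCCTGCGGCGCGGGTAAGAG
On both strands the Col4a1 entry holds 1 and the Col4a2 entry 3 GC boxes (GGGCGG), a motif found in 35.7% of 32851 promoter entries of this length. Each holds 1 CCAAT, found in 37.4% of entries, and 0 TATAAA, found in 13.6%. A match of letters is a description and not a bound site. Of the 8 genes, 7 had an entry, all but Lamc1.

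Col4a1 had signals of 1676, 1465 and 2004 in myofibroblast, 1453, 1153 and 945.6 in fibroblast and 2311, 2132 and 2365 in keratocyte cultures. Its signals were 278.8, 262.8 and 296.5 in adult stroma and 1238 and 1356 in P10 stroma. All keratocyte cultures stood above all myofibroblast cultures, these above P10 stroma, and adult stroma stood below every other array, while fibroblast cultures and P10 stroma overlapped. The adult mean was 279.4 ± 16.8 (SD, n = 3) against 1297 ± 83.2 in P10 stroma (SD, n = 2), a log2 difference of -2.15 (SE 0.19, adjusted p = 3.92e-05). In keratocyte culture the mean of 2269 ± 122 was 8.12 times the adult mean (log2 difference 2.95, SE 0.17, adjusted p = 7.88e-09). Fibroblast cultures averaged 1184 ± 255 and were 2 higher than adult stroma on the log2 scale (adjusted p = 4.47e-07). Myofibroblast cultures averaged 1715 ± 272 and were 2.54 higher (adjusted p = 3.48e-08).

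Among cultures Col4a1 was lower in fibroblasts than in keratocytes by a log2 difference of -0.95 (SE 0.17, adjusted p = 0.0128). The difference stayed at -1.11 to -0.801 with single arrays left out, but the call was lost without some of them. The adjusted p was 0.0545 without fibroblast replicate 3, 0.0785 without keratocyte replicate 1, 0.0934 without keratocyte replicate 3 and 0.118 with only these groups in the fit. In myofibroblast against fibroblast culture every myofibroblast array was above every fibroblast array, yet the difference of 0.54 (95% interval 0.18 to 0.9) had an adjusted p of 0.22. The labels do not say that these arrays are pairs, and pairing by replicate number was a choice made from the signals. Within numbers 1, 2 and 3 the myofibroblast array was higher by 0.2, 0.34 and 1.07, with an adjusted p of 0.177 when fitted in pairs. The difference of keratocyte culture from P10 stroma was 0.8 (adjusted p = 0.00839), which became 0.0955 without P10 replicate 1.

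Col4a2 had signals of 1015, 831.5 and 1138 in myofibroblast, 1067, 824.6 and 1062 in fibroblast and 1140, 1260 and 1231 in keratocyte cultures. Its signals were 132.7, 129.9 and 155.4 in adult stroma and 437.3 and 453.3 in P10 stroma. All culture arrays stood above P10 stroma and P10 stroma above adult stroma, where 1 of 3 arrays exceeded background. The adult mean of 139.4 ± 14 (SD, n = 3) was lower than the P10 mean of 445.3 ± 11.3 (SD, n = 2) by a log2 difference of -1.57 (SE 0.18, adjusted p = 0.000263). Keratocyte cultures averaged 1210 ± 62.6, with a log2 difference from adult stroma of 2.98 (SE 0.16, adjusted p = 4.64e-09), fibroblast cultures 984.6 ± 139 with 2.68 (adjusted p = 1.28e-08) and myofibroblast cultures 994.8 ± 154 with 2.69 (adjusted p = 1.2e-08). Keratocyte cultures were above P10 stroma by 1.41 (adjusted p = 6.1e-05). Differences between cultures did not pass: -0.3 in fibroblast against keratocyte culture (95% interval -0.64 to 0.04) and 0.01 in myofibroblast against fibroblast culture (95% interval -0.33 to 0.36, adjusted p = 1).

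The signals of the 2 chains moved together but not in a fixed proportion. Their Pearson correlation, with both signals read on the same 14 arrays, was 0.936. Since each signal depends on its own probes, their ratio can be compared between arrays but is no chain ratio. Col4a1 over Col4a2 was 1.65, 1.76 and 1.76 in myofibroblast, 1.36, 1.4 and 0.89 in fibroblast and 2.03, 1.69 and 1.92 in keratocyte cultures, against 2.1, 2.02 and 1.91 in adult and 2.83 and 2.99 in P10 stroma. Fibroblast cultures had the lowest ratios and P10 stroma the highest, with no overlap with another group, and no test was made of the ratio.

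**Figure D2:**
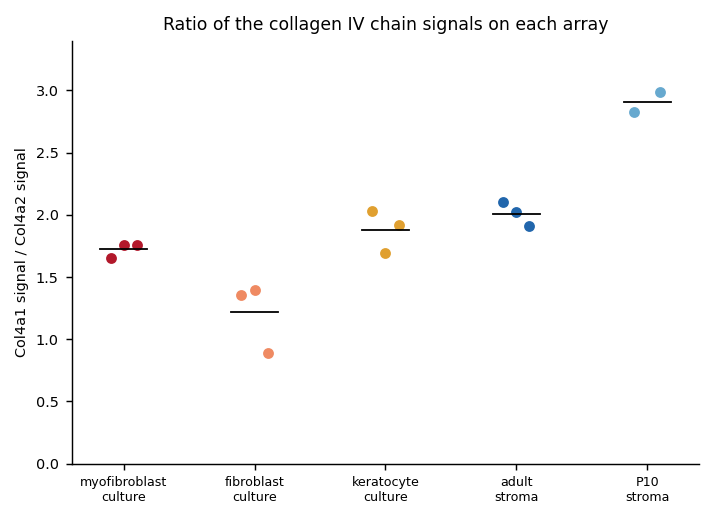
Ratio of the Col4a1 to the Col4a2 signal on each array, by group, with the group mean as a bar and the axis from 0. The fibroblast cultures lie at 0.89 to 1.4 and P10 stroma at 2.83 and 2.99.

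Laminin beta 1 and gamma 1 chains (Lamb1, Lamc1) are shared by many laminin trimers, and the alpha 2 chain (Lama2) joins them in the trimer around muscle fibres and Schwann cells. Lamb1 had signals of 496.3, 423.1 and 386.9 in myofibroblast, 364.4, 314.8 and 197.3 in fibroblast and 406.3, 310.5 and 389.6 in keratocyte cultures, and 315.1, 308.3 and 179.3 in adult and 790.1 and 568 in P10 stroma. Only P10 stroma stood clear of its neighbour in the order, and all other neighbouring groups overlapped. The adult mean of 267.6 ± 76.5 (SD, n = 3) was lower than the P10 mean of 679 ± 157 (SD, n = 2) by a log2 difference of -1.32 (SE 0.28, adjusted p = 0.0171). The adjusted p was 0.242 without P10 replicate 1, 0.0605 without P10 replicate 2, 0.0839 with only these groups in the fit and 0.0529 after centring each array on its median.

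In myofibroblast culture Lamb1 averaged 435.4 ± 55.7 and was higher than in adult stroma by 0.7 (SE 0.25, adjusted p = 0.0444), the only culture in which it passed. The adjusted p was 0.182 without adult replicate 3 and 0.138, 0.0786 and 0.062 without myofibroblast replicates 1, 2 and 3. Centring gave 0.052, and adding the Gapdh ratio to the model gave 0.0823. Keratocyte culture differed from adult stroma by 0.47 (95% interval -0.07 to 1.01, adjusted p = 0.173) and fibroblast culture by 0.12 (95% interval -0.42 to 0.66, adjusted p = 0.757). The difference of 0.59 in myofibroblast against fibroblast culture (95% interval 0.05 to 1.12) had an adjusted p of 0.561. The dimmer probe set of Lamb1 had 201.6, 182.9 and 158.4 in myofibroblast, 177, 128.1 and 73.93 in fibroblast and 183.3, 132.2 and 163.1 in keratocyte cultures, and 248.6, 179.8 and 117.9 in adult and 322.3 and 279.3 in P10 stroma. It was also highest in P10 stroma, with a difference of -0.73 in adult against P10 stroma that did not pass (adjusted p = 0.267). Its mean was 181 ± 21.7 in myofibroblast cultures and 182.1 ± 65.4 in adult stroma (SD, n = 3 each), and these groups overlapped.

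Lamc1 had signals of 395.1, 235.6 and 400.5 in myofibroblast, 549.7, 310.6 and 588.9 in fibroblast and 863.4, 405.3 and 653.9 in keratocyte cultures, and 195.5, 175.5 and 184.8 in adult and 425 and 446.6 in P10 stroma. Every array of the other groups stood above adult stroma, and replicate 2 was the lowest array within each culture. Keratocyte cultures averaged 640.9 ± 229, against 185.3 ± 10 in adult stroma (SD, n = 3 each), a log2 difference of 1.64 (SE 0.29, adjusted p = 0.000537). Fibroblast cultures averaged 483.1 ± 151 and differed by 1.26 (adjusted p = 0.00395), and myofibroblast cultures averaged 343.7 ± 93.7 and differed by 0.8 (adjusted p = 0.0451). The last call was lost without any one adult array (adjusted p 0.0839, 0.0938 and 0.0898 without replicates 1, 2 and 3), without myofibroblast replicate 1 (0.142) and without myofibroblast replicate 3 (0.147), and it was 0.144 with the Gapdh ratio as a covariate. The difference of -1.17 in adult against P10 stroma (95% interval -1.86 to -0.48) had an adjusted p of 0.0614.

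Among cultures Lamc1 differed by -0.84 in myofibroblast against keratocyte culture (adjusted p = 0.11), which became 0.0305 without keratocyte replicate 2 and 0.00761 with array quality weights. Within replicate numbers the myofibroblast array was below the fibroblast array by log2 differences of -0.46, -0.38 and -0.54. The adjusted p was 0.82 in the fit of all arrays and 0.0726 in the fit paired by number. The values of Lamc1 rest on a probe set of the kind that the array's maker marks as matching a family of sequences, so other transcripts may add to it. The other Lamc1 probe set was within background on all 14 arrays, between 31.9 and 50.17, and was removed by the filter on low signals.

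Lama2 had signals of 436, 386.8 and 501.4 in myofibroblast, 256.4, 178.6 and 373.4 in fibroblast and 632.9, 239.4 and 378.7 in keratocyte cultures, and 109.7, 84.41 and 67.34 in adult and 177.6 and 183.1 in P10 stroma. Adult stroma was within background on 3 of 3 arrays and below every other array, and keratocyte cultures overlapped both of the other cultures. The adult mean was 87.15 ± 21.3, and the gene was called higher in keratocyte (417 ± 199, adjusted p = 0.000189), fibroblast (269.5 ± 98.1, adjusted p = 0.00253) and myofibroblast cultures (441.4 ± 57.5, adjusted p = 7.94e-05; SD, n = 3 each). The adjusted p was 0.175 in adult against P10 stroma. In myofibroblast against fibroblast culture every myofibroblast array was above every fibroblast array, and the difference of 0.73 (95% interval 0.07 to 1.39) had an adjusted p of 0.534, or 0.0716 in pairs. A difference of 1.04 in keratocyte culture against P10 stroma had an adjusted p of 0.0564, which became 0.0111 without keratocyte replicate 2.

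Nidogen-1, which binds both laminin and collagen IV, was within background on all 14 arrays. Its signals were 58.23, 33.42 and 47.86 in myofibroblast, 107.1, 39.11 and 63.52 in fibroblast and 81.92, 41.61 and 58.42 in keratocyte cultures, and 21.88, 14.8 and 4.149 in adult and 51.85 and 21.82 in P10 stroma. The fit gave adjusted p-values of 0.00625, 0.0037 and 0.0223 for keratocyte, fibroblast and myofibroblast culture against adult stroma. These are no evidence of a change, since the probe set entered the test through the brighter cultures and no level can be given for one this dim.

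Perlecan, the large proteoglycan of basement membranes that also binds growth factors, was higher in each culture than in adult stroma. Hspg2 had signals of 755.8, 747.5 and 783.5 in myofibroblast, 709.6, 813.9 and 727 in fibroblast and 626.3, 644.3 and 694.6 in keratocyte cultures, and 272.2, 395.9 and 386.9 in adult and 513.5 and 524.7 in P10 stroma. Myofibroblast and fibroblast cultures overlapped and stood above keratocyte cultures, these above P10 stroma, and P10 above adult stroma. Against the adult mean of 351.7 ± 69, the mean was 655.1 ± 35.4 in keratocyte (log2 difference 0.88, SE 0.16, adjusted p = 0.000547), 750.1 ± 55.9 in fibroblast (1.08, adjusted p = 9.9e-05) and 762.3 ± 18.8 in myofibroblast cultures (1.1, adjusted p = 7.51e-05; SD, n = 3 each). Adult stroma differed from P10 stroma by -0.56 (95% interval -0.93 to -0.19, adjusted p = 0.1). Between myofibroblast and fibroblast cultures it was 0.02, with a 95% interval of -0.31 to 0.36.

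Agrin, a proteoglycan best known for clustering acetylcholine receptors at the neuromuscular junction and found in other basement membranes too, was not higher in any culture than in adult stroma, although like Col4a1 it was lower in adult than in P10 stroma and in fibroblast than in keratocyte cultures. Its brighter probe set had signals of 182.4, 143.8 and 118.6 in myofibroblast, 206.5, 162.1 and 127.4 in fibroblast and 397.5, 299.2 and 422.3 in keratocyte cultures, and 580.6, 450.1 and 388.6 in adult and 976.8 and 1018 in P10 stroma. P10 stroma stood above adult stroma and keratocyte above fibroblast cultures without overlap, while adult stroma overlapped keratocyte cultures and fibroblast overlapped myofibroblast cultures. The mean was 473.1 ± 98 in adult stroma (SD, n = 3) against 997.4 ± 29 in P10 stroma (SD, n = 2), a log2 difference of -1.07 (SE 0.24, adjusted p = 0.0234). The adjusted p was 0.0523 without adult replicate 2, 0.0558 without adult replicate 3, 0.165 without P10 replicate 1, 0.208 without P10 replicate 2 and 0.0569 after centring.

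Agrn was lower in fibroblast (mean 165.4 ± 39.7) than in keratocyte cultures (373 ± 65.1; SD, n = 3 each) by a log2 difference of -1.11 (SE 0.22, adjusted p = 0.0214). That adjusted p was 0.0516 without fibroblast replicate 2, 0.0926 without fibroblast replicate 3, 0.111 without keratocyte replicate 1, 0.144 without keratocyte replicate 3 and 0.125 with only these groups in the fit. In myofibroblast culture (148.3 ± 32.1) it was lower than in keratocyte culture by a difference of -1.25 (SE 0.22, adjusted p = 0.0027). Against adult stroma the differences were -0.33 in keratocyte (adjusted p = 0.278), -1.44 in fibroblast (adjusted p = 0.000142) and -1.57 in myofibroblast culture (adjusted p = 5.76e-05), and keratocyte culture was below P10 stroma by a difference of -1.4 (adjusted p = 0.000956).

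The dimmer probe set of Agrn gave another order. Its signals were 116.3, 209.7 and 316.3 in myofibroblast, 215.3, 209.2 and 168.6 in fibroblast and 153, 179.9 and 242.2 in keratocyte cultures, and 396.1, 318.5 and 501.4 in adult and 342.1 and 401.9 in P10 stroma. By this probe set the 3 cultures overlapped and adult and P10 stroma overlapped. It fell in keratocyte (-1.02, adjusted p = 0.0134), fibroblast (-0.96, adjusted p = 0.0187) and myofibroblast culture (-0.95, adjusted p = 0.0194) against adult stroma. It differed by 0.1 in adult against P10 stroma (adjusted p = 0.944) and by 0.06 in fibroblast against keratocyte culture (adjusted p = 0.977). Both probe sets therefore had lower Agrn in fibroblast and myofibroblast cultures than in adult stroma, and of them the brighter one passed the test by age and between cultures. With the median over both probe sets the adjusted p was 0.273 in fibroblast and 0.0698 in myofibroblast against keratocyte culture. Why the probe sets differ was not tested.

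**Figure D3:**
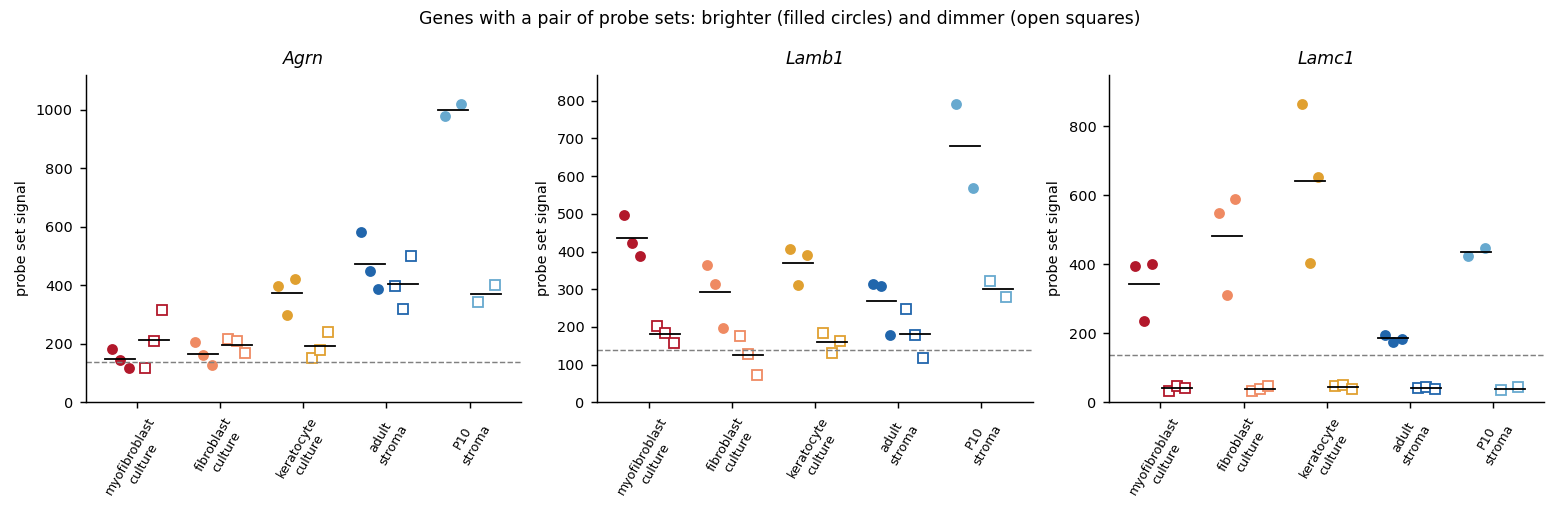
Signals of the brighter (filled circles) and the dimmer probe set (open squares) of Agrn, Lamb1 and Lamc1 on each array, with group means as bars and the background level of 137.7 as a dashed line. The dimmer Agrn probe set does not separate P10 from adult stroma or the cultures from one another, and the dimmer Lamc1 probe set lies within background throughout.

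**Figure D4:**
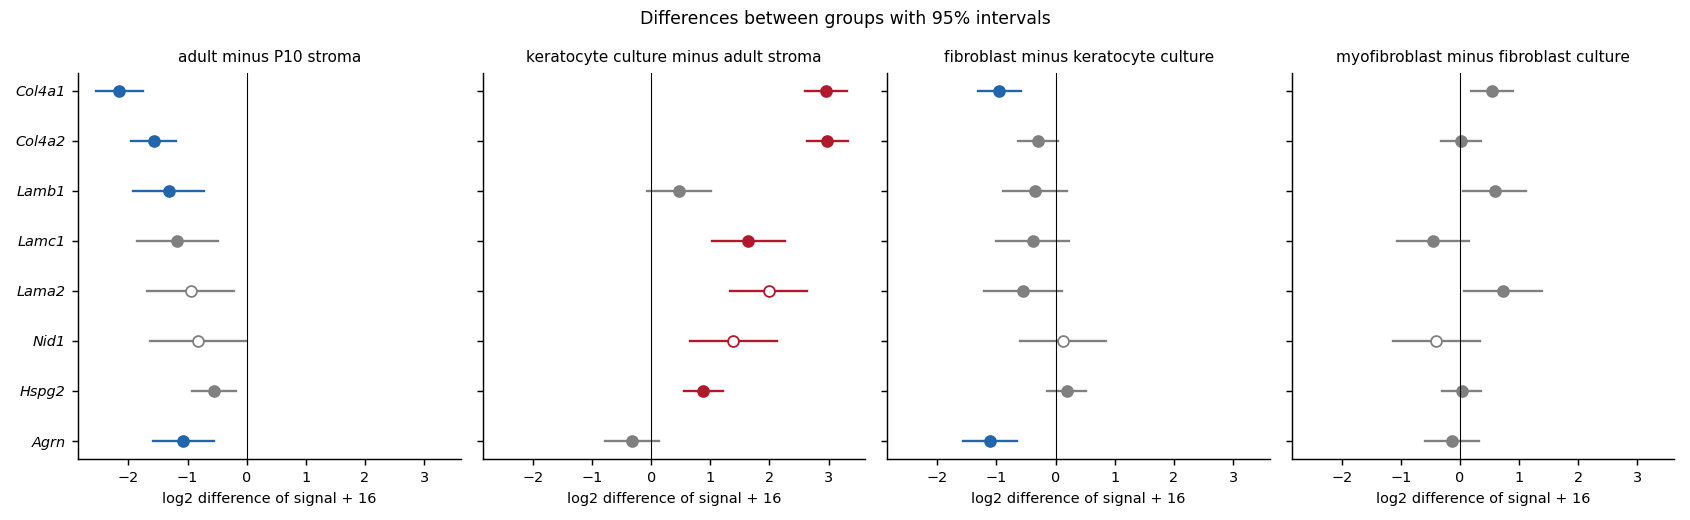
Log2 differences of signal + 16 with 95% intervals for the 8 genes in 4 comparisons, red where called higher, blue where called lower and grey where not called, with open circles where a group mean was within background. The collagen IV chains differ by 2.95 and 2.98 in keratocyte culture against adult stroma, and 0 genes are called in myofibroblast against fibroblast culture.

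Other chains of the same families were followed through lists of genes, whose counts stand beside the shares of all probe sets given above. Of 8 other laminin chains 6 were measured. Keratocyte cultures had higher Lamb2 than adult stroma (mean 269.5 ± 98.5 against 46.85 ± 8.88, adjusted p = 0.000957) and higher Lama4 (271.8 ± 34.2 against 68.72 ± 13.7, adjusted p = 4.73e-06). Lama3 (18.14 ± 2.35 against 446.6 ± 152, adjusted p = 4.94e-09) and Lamb3 (25.92 ± 2.82 against 239 ± 43.6, adjusted p = 8.8e-07), chains of the laminin under the epithelium, fell (SD, n = 3 each). Both chains were within background in all cultures and passed the filter on low signals only through stroma, so their adjusted p-values are no separate evidence. These falls moved with the epithelial markers, and the part of those markers' cells in the falls was not tested. Lama3 was at 15.84 ± 1.28 in myofibroblast and 8.45 ± 2.25 in fibroblast cultures, and Lama3 and Lamb3 were also called lower there. The count was 2 higher and 3 lower against adult stroma in both. Over all probe sets 17.5% rose and 15.5% fell in myofibroblast culture, and 18.4% and 12.3% in fibroblast culture. In myofibroblast culture the higher chains include Lamb2, within background in both groups (134.9 ± 57.5 against 46.85 ± 8.88). In myofibroblast against keratocyte culture 1 chain, Lama4, fell (149.6 ± 24.8 against 271.8 ± 34.2), where 4.88% of all probe sets fell. From the list 1 chain, Lama4, fell in adult against P10 stroma, where 3.26% of all probe sets fell. Both of its means there were within background (68.72 ± 13.7 against 133.3 ± 33.5).

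Of 9 other collagens of basement membranes and of Descemet's membrane 6 were tested. Of these 3 fell and 0 rose in adult against P10 stroma, where 3.26% of all probe sets fell and 0.453% rose. The 3 were Col8a1, a main collagen of Descemet's membrane (86.4 ± 14.1 against 580.1 ± 3.86), Col4a5, another collagen IV chain (26.68 ± 12.8 against 180.7 ± 14.8), and Col15a1 (23.46 ± 6.04 against 165.4 ± 29.4; SD, n = 3 adult and n = 2 P10). Rises of 4 genes were called in keratocyte culture against adult stroma, where 21.8% of all probe sets rose. Among the 4 were Col8a1 at 1871 ± 229 and Col18a1, whose fragment is endostatin, at 685.3 ± 98.5 against 127.4 ± 5.2. In fibroblast against keratocyte culture Col8a1 rose (3651 ± 977 against 1871 ± 229) and Col18a1 (246.6 ± 93.6 against 685.3 ± 98.5) and Col15a1 (53.68 ± 22.4 against 164.2 ± 47.3) fell. Over all probe sets 0.193% rose and 1.18% fell there. In myofibroblast against keratocyte culture the same 3 genes were called in the same directions, with Col18a1 at 104.1 ± 22.7 in myofibroblast cultures. Over all probe sets 1.1% rose and 4.88% fell in that comparison. Col7a1, the anchoring fibril collagen, was higher in myofibroblast (1241 ± 316) and fibroblast cultures (981 ± 219) than in adult stroma (458.6 ± 78.7).

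**Figure D5:**
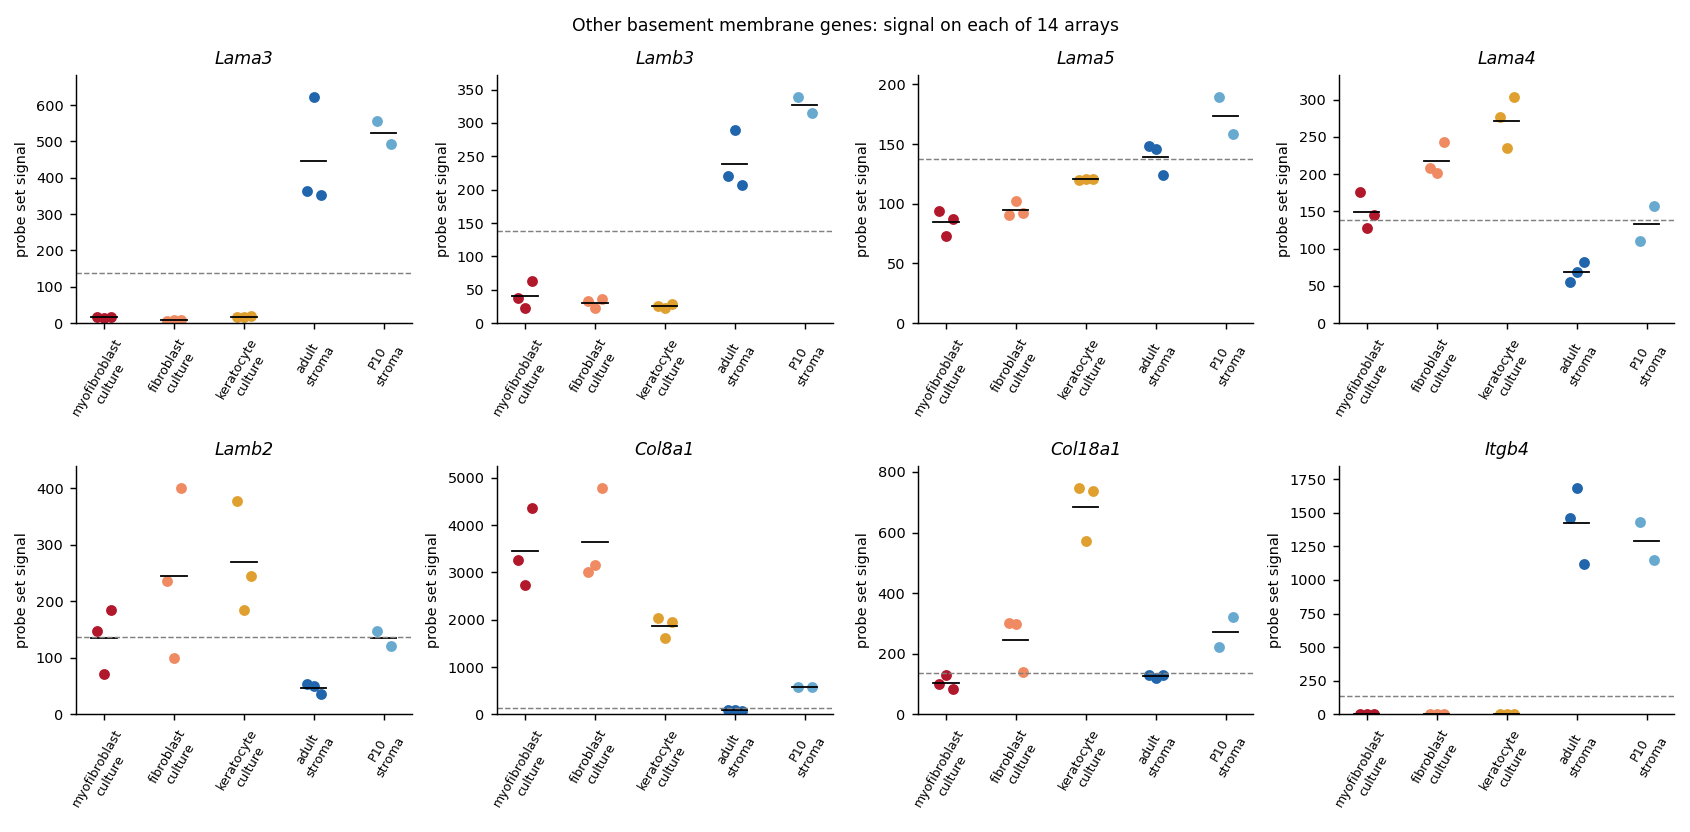
Signals of 8 further basement membrane genes on each array (one panel a gene, linear axes from 0), with group means as bars and the background level of 137.7 as a dashed line. Lama3, Lamb3 and Itgb4 lie within background in all cultures, and Col8a1 and Col18a1 are within background in adult stroma.

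Other glycoproteins associated with basement membranes counted 21, of which 10 were tested. Of these 3 fell in adult against P10 stroma, where 3.26% of all probe sets fell, and Sparc was among the 3 (1157 ± 354 against 2095 ± 224). In keratocyte culture against adult stroma 6 rose and 0 fell, where 21.8% of all probe sets rose and 9.25% fell. The rises were led by tenascin-C (Tnc, 1754 ± 89.5 against 109.7 ± 16.6), fibulin-2 (Fbln2, 1157 ± 224 against 114 ± 19.7) and Tinagl1 (485.3 ± 13.5 against 92.89 ± 18.8). In myofibroblast against fibroblast culture 3 fell, where 0.781% of all probe sets fell. Of the 3, Smoc2, a calcium-binding matrix protein, was above background in fibroblast cultures (95.39 ± 18.6 against 248.5 ± 84.3, adjusted p = 0.0277). In myofibroblast culture against adult stroma 5 rose and 2 fell, where 17.5% of all probe sets rose and 15.5% fell. Netrin-1 (Ntn1, 222.2 ± 48.9 against 435.2 ± 55.2) was the named fall.

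Most of the tested genes that fold, hydroxylate and export collagen rose in culture. Of 13 listed, 9 were tested, and 7 rose and 0 fell in each culture against adult stroma, where 17.5% to 21.8% of all probe sets rose. P4hb and Mia3 were not called in any of the 3. P4ha1, a collagen prolyl hydroxylase, averaged 582.6 ± 134 in myofibroblast, 536.3 ± 154 in fibroblast and 608.4 ± 90 in keratocyte cultures, against 56.62 ± 16.8 in adult stroma. The collagen chaperone Serpinh1 averaged 3331 ± 371, 3251 ± 217 and 3064 ± 255 in the same cultures, against 499.6 ± 184 in adult stroma, and the lysyl hydroxylase Plod3 averaged 531.8 ± 147, 585.3 ± 176 and 595.8 ± 106, against 87.27 ± 17.7 (SD, n = 3 each). By age 2 fell in adult against P10 stroma, Serpinh1 (499.6 ± 184 against 1527 ± 34.4) and Sparc, which stands on both lists. Between cultures 0 of the 9 were called by limma, with 0, 0 and 1 at an unadjusted p under 0.05 in fibroblast against keratocyte, myofibroblast against fibroblast and myofibroblast against keratocyte culture.

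Of 18 receptors for these proteins 15 were tested. In keratocyte culture against adult stroma 3 of the 15 rose and 5 fell, where 21.8% of all probe sets rose and 9.25% fell, so the share that rose was near that of all probe sets. The integrin chain Itgb1 (2637 ± 434 against 906.2 ± 176) and the collagen receptor Ddr2 (455.8 ± 150 against 176.3 ± 91.9) rose. The epithelial receptors Itgb4, itself one of the epithelial markers above (at the floor of 1 on all 3 arrays, against 1420 ± 282), Sdc1 (30.12 ± 9.81 against 1112 ± 309) and Itga6 (73.62 ± 28.3 against 260.5 ± 82.2) fell. Itgb4 and Sdc1 were within background in all cultures and passed the filter on low signals only through stroma. Their falls, counted among the 5, are therefore no separate evidence. By age 1 receptor fell in adult against P10 stroma, Ddr2 (176.3 ± 91.9 against 835.5 ± 60.2, adjusted p = 0.00274). In myofibroblast against keratocyte culture 2 fell, Ddr1 being the one above background (128.2 ± 15.6 against 264.5 ± 18.4).

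Cells that surround or line vessels also make these proteins, and their markers were summed in the same way. The sum of 11 vascular endothelial markers was 2636 to 3543 in myofibroblast, 2127 to 3115 in fibroblast and 2341 to 3063 in keratocyte cultures, against 921.6 to 1249 in adult and 1595 to 1625 in P10 stroma. Of these listed markers, Pecam1 was above background on average only in adult stroma and Cdh5 and Emcn only in keratocyte cultures, while Tie1, Flt1 and Eng were above it in all groups. The other markers of the list were not above it on average in any group. The sum of 8 mural cell markers was 1070 to 1239, 1158 to 1441 and 1700 to 1894 in the same cultures, against 1700 to 1916 and 1847 to 2069 in adult and P10 stroma. For 7 Schwann cell markers it was 1490 to 2006, 1793 to 2300 and 1912 to 2435, against 1319 to 1575 and 1565 to 1583. For 13 macrophage markers it was 1376 to 2163, 1577 to 2976 and 3202 to 4046, against 1006 to 1432 and 1605 to 1681. For 4 corneal endothelial markers, which include Col8a1, it was 3155 to 5341, 4700 to 8931 and 3240 to 4568, against 314.4 to 376.1 and 931.9 to 935.6. For 10 retina markers it was 469.4 to 545.9, 430.7 to 500.2 and 412.5 to 459.6, against 1258 to 4115 and 2371 to 3727. Such sums can hide opposite moves. In keratocyte culture against adult stroma the mural cell markers Pdgfrb, Mcam and Myh11 were called higher and Des and Notch3 lower. Myh11 was within background in both groups (125.6 and 58.27), so no level can be given for it. Pdgfrb (316.1 against 6.219) passed the filter on low signals only through the cultures, so its call is no separate evidence. Of the Schwann cell markers, Sox10 and Pmp22 were called higher and Mbp lower in that comparison. The part of all these cell types in the results was not tested.

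Col4a2 had a Pearson r of 0.936 with Col4a1 over the 14 arrays. Outside the 8 genes, those whose log2 signals correlated most with Col4a1 were Fstl1 (Pearson r 0.946), Myl9 (0.943), Acta2 (0.933), Celf2 (0.927) and Pfn2 (0.926). Fstl1, a secreted glycoprotein, averaged 3571 in myofibroblast, 2486 in fibroblast and 3502 in keratocyte cultures, against 407.8 in adult and 1747 in P10 stroma. For Agrn they were Laptm4b (0.969), Ets2 (0.951), Ltbp4 (0.949), Nrip1 (0.947) and Adgrg1 (0.945). Ltbp4, a TGF-beta binding protein, averaged 67.28, 74.54 and 155.7 in the same cultures, against 221.4 in adult and 921.8 in P10 stroma. Among the 8 genes r was 0.919 for Col4a2 with Hspg2, -0.263 for Col4a1 with Agrn and -0.666 for Hspg2 with Agrn. These are descriptions over arrays that fall into 5 groups.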

How the data were processed

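The deposited table holds 1 intensity per probe set and array, linear, never below 1. Per the labels' protocols, 5 µg of TRIzol RNA was labelled per array and the authors scaled the signals in Affymetrix Microarray Suite to a target of 150. The columns as deposited differ in their medians, so how far that scaling holds is not settled, and the table gives no detection calls. Each column was matched to 1 sample by its label, and 0 columns were left unmatched.

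Symbols came from the platform annotation of the probes, with 10833 of 12422 non-control probe sets having 1 symbol, 396 several and 1193 none. Probe sets whose mean reached 50 in any of the 5 groups were tested, 10370 in all. The brightest tested probe set by mean log2 signal stood for a gene, and others are given beside it. A model of log2(signal + 16) with a mean for each group was fitted to the 14 arrays together with limma 3.58.1 (R 4.3.3), which leaves 9 residual degrees of freedom, using a variance trend. Tests were two-sided, with Benjamini-Hochberg adjustment over the 10370 probe sets of each of 8 comparisons. The added constant understates changes of dim probe sets. Intervals are 95% intervals of the fit, without adjustment for the number of tests. The fit was tested on simulated data. The number of arrays limits the precision.

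The members, gene lists and comparisons were chosen with earlier results of these data known. Named genes are the 8 members by every probe set and, from each list, up to 3 called genes a direction and comparison. Those had the largest difference and a group above background. The 5 genes outside the 8 most correlated with Col4a1 and with Agrn are named too. Among all named genes, some values are left out for brevity. Arrays of the same number deviated together from their group means in myofibroblast and fibroblast cultures (correlations 0.623, 0.682 and 0.533). Correlations were 0.197, 0.572 and 0.0694 in fibroblast and keratocyte cultures, and 0.221, 0.409 and 0.0743 in myofibroblast and keratocyte cultures. Numbers were taken as pairs in myofibroblast and fibroblast cultures only. The labels do not state pairs, and this choice came from the same signals. Alternatives were an added constant of 1 or 64, a filter at 100 or none, quantile normalization, centred medians, only the 2 groups in the fit with and without a replicate block, other variance estimates, array quality weights, the Gapdh 3'/5' ratio as a covariate, the median over probe sets, each array left out and, chosen after seeing the data, the other probe set of Agrn, Lamb1 and Lamc1.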

Additional observations from a re-analysis of the deposited data

How the results depend on the processing

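The counts of called genes among the 8, Nid1 included, held in keratocyte and fibroblast culture against adult stroma and in myofibroblast against fibroblast culture under all alternatives run, within 1.5 times. The count was 4 in adult against P10 stroma and became 2 with centred medians, with a replicate block, with the median over probe sets and with the other probe sets, 7 with array quality weights, and 2 to 4 with single arrays left out. In fibroblast against keratocyte culture it was 2 and became 0 with only these groups in the fit, 0 with a replicate block, 1 with the median over probe sets, 1 with the other probe sets, and 0 to 2 with single arrays left out. In myofibroblast against keratocyte culture it was 1 and became 3 with quality weights, 2 with a replicate block (Lamc1 added, adjusted p = 0.0137), 0 with the median over probe sets, 0 with the other probe sets, and 1 to 2 with single arrays left out. In myofibroblast culture against adult stroma it was 8, and 5 to 7 with single arrays left out. In keratocyte culture against P10 stroma it was 3 and became 5 with quantile normalization, 7 with quality weights, and 2 to 4 with single arrays left out. The causes were not tested.

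With the replicate block, in which arrays are paired by number, 0 of the 8 genes were called in myofibroblast against fibroblast culture, as without it. Over all probe sets it called 63 higher and 147 lower there, against 30 and 81 in the fit of all arrays. Where the numbers were not taken as pairs, the block left the counts of the 3 comparisons named above at 2, 0 and 2, and changed no other count by over 1.5 times. Scaling moved the median difference of all probe sets, which was -0.125 as deposited, 0.05 with centred medians and 0.03 with quantile normalization in adult against P10 stroma, 0.12, -0.05 and -0.05 in keratocyte culture against adult stroma, and -0.13, 0.04 and 0.03 in myofibroblast against keratocyte culture.

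Of the differences of single genes under alternatives, 1120 kept direction and side of the threshold, 50 lost the call, 23 gained it and 23 changed sign. With the other probe set the sign changed for Lamc1 (0.0419) and Agrn (0.1) in adult against P10 stroma, Lamb1 in keratocyte culture against adult stroma (-0.13), Agrn in fibroblast against keratocyte culture (0.0563), Lamc1 (0.0407) and Agrn (0.0153) in myofibroblast against fibroblast culture, Agrn in myofibroblast against keratocyte culture (0.0716), Lamb1 (-0.491) and Lamc1 (-0.0698) in fibroblast culture against adult stroma, and Lamc1 in myofibroblast culture against adult stroma (-0.0291). The Lamc1 values of that probe set, within background on all 14 arrays, and the Lamb1 value of fibroblast culture, whose mean was within background, give no direction, nor do those of Nid1. Other changes of sign were in differences that were not called: Nid1 in fibroblast against keratocyte culture (-0.178 to 0.402 with single arrays left out), Col4a2 (-0.108 to 0.134), Hspg2 (-0.0131 to 0.0838, and -0.00475 with the Gapdh ratio) and Agrn (-0.295 to 0.0214) in myofibroblast against fibroblast culture, Lama2 in myofibroblast against keratocyte culture (-0.153 to 0.519), and Lamb1 in fibroblast culture against adult stroma (-0.13 to 0.363 with single arrays left out, -0.049 with quality weights and -0.186 with the median over probe sets). Signals near background limit Nid1 and the dimmer Lamc1 probe set on all arrays, the dimmer Lamb1 probe set in fibroblast cultures, and Lama2 and Col4a2 in adult stroma.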
